A study of Mus musculus with 6 samples.

Results

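The genes for 10 neuropeptide precursors of the cortex, *Sst*, *Npy*, *Vip*, *Cck*, *Crh*, *Tac1*, *Penk*, *Pdyn*, *Nts* and *Adcyap1*, were followed in mice that overexpress *Shank3*, in the medial prefrontal cortex (mPFC). They were chosen by name and matched to the deposited table of 18254 genes through the gene symbols of GENCODE release M21. All 10 had a row, and all 10 passed the filter on low values: each averaged 5 or more normalized counts. Male wild-type (WT) littermates and EGFP-*Shank3* transgenic (TG) mice, both in a C57BL/6J background and 10 to 12 weeks old, gave 3 RNA samples of each genotype, and each sample pooled the mPFC of 2 mice. A replicate is therefore a pool, numbered 1, 2 or 3 in each genotype (TG-1 and so on). No group received a treatment, and the promoter that drives the transgene is not given in the sources used here.

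Neuropeptides are cut from larger precursor proteins inside dense-core vesicles and act on G protein-coupled receptors, more slowly and over a wider range than GABA or glutamate. In the cortex, *Sst*, *Vip* and *Npy* are best known from classes of GABAergic interneurons, and the first of these names the class that contacts distal dendrites. *Cck* and *Adcyap1* are also transcribed in pyramidal neurons. *Penk*, *Pdyn* and *Tac1* are known from the medium spiny neurons of the striatum as well as from scattered cortical cells.

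Libraries held from 28363967 to 29447717 normalized counts in all. *Shank3*, the gene that the transgene adds, measured 17470, 19004 and 16310 normalized counts in TG-1, TG-2 and TG-3 against 8374, 8173 and 6791 in the WT libraries, which went with the labels. Its fitted log2 difference was 1.18 (standard error 0.10), and it had an adjusted p of 0.0643 from limma, or 0.000437 when the replicate number entered as a block. The libraries numbered 3 stood apart in both genotypes: across genes, the deviations of TG-3 and WT-3 from their genotype means correlated at 0.62. TG-2 stood apart in another way, with 1539 normalized counts summed over 6 markers of the olfactory bulb (*Th*, *Eomes*, *Tbx21*, *Doc2g*, *Scgn* and *Cdhr1*) against 168 to 368 in the other libraries. Markers of excitatory neurons summed to between 155860 and 187950 normalized counts and those of inhibitory neurons to between 26689 and 30193, and none of the 17 was at 0 in any library. The 9 markers of striatal neurons summed to between 4794 and 5726, none at 0 in any library, and *Drd1* and *Drd2*, the dopamine receptors of the direct and indirect pathways, had 176 to 296 and 6.47 to 21.3 normalized counts.

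The promoters of several of these genes hold the core of the cAMP response element, the letters to which CREB-type factors bind and which was first described in a neuropeptide gene. RefSeq promoter windows (GRCm38.p6, from 250 bases before to 50 bases after a start) were matched for 8 of the 10 genes, all but *Crh* and *Penk*. The core TGACG, searched on both strands, was found in 7 of the 10 windows, which belong to 6 of the 8 genes, and it occurs in 20.8% of all 32851 windows. The full palindrome TGACGTCA, which contains the core on both strands, was found for *Sst* alone and occurs in 1.79% of all windows. The windows of *Npy* and *Pdyn* did not hold these letters. The stretches below, each 30 bases on the strand of the gene, are shown because 6 of the 8 genes hold the core, and the capitals mark the match nearest to the start in the first window listed for each gene. The match begins 48 bases before the RefSeq start in *Sst*, 79 in *Vip*, 47 in *Cck*, 43 in *Tac1*, 166 in *Nts* and 91 in *Adcyap1*. For *Sst*, *Tac1* and *Nts* this start lies inside the GENCODE gene given below, whose end reaches farther upstream, and the stretches of *Sst* and *Tac1* themselves lie inside that gene.
Sst (chr16:23890874-23890903, minus strand): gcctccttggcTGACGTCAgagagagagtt
Vip (chr10:5639127-5639156, plus strand): ggatcactactgTGACGtctttcggggagc
Cck (chr9:121495724-121495753, minus strand): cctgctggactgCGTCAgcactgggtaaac
Tac1 (chr6:7555006-7555035, plus strand): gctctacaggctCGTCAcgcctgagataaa
Nts (chr10:102490567-102490596, minus strand): attagggaagatCGTCActttccatcaagg
Adcyap1 (chr17:93198914-93198943, plus strand): ggactaggatgcTGACGtcttttactgata
In *Cck*, *Tac1* and *Nts* the capitals read CGTCA, which is the core on the opposite strand. A match of letters is a description of the window and does not show that a factor bound there.

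The 10 genes differed widely in level. Per kilobase of merged exons, *Cck* had 6557 ± 649 normalized counts (SD over the 6 libraries) and *Sst* 6135 ± 672, and 99.4% of the tested genes had a lower level per kilobase than either of them. *Npy* followed with 3965 ± 398 normalized counts per kilobase. *Penk* had 700.4 ± 49.6, *Vip* 316 ± 48.5, *Adcyap1* 214 ± 25.4, *Pdyn* 183 ± 19.5, *Crh* 115 ± 17.1 and *Tac1* 78.1 ± 5.76 normalized counts per kilobase. *Nts*, whose product neurotensin is made mostly outside the neocortex, was lowest with 8.14 ± 1.75, above 11.4% of the tested genes. On this scale the libraries' ranges of *Cck* and *Sst* overlapped, as did those of *Adcyap1* and *Pdyn*, and the other neighbours in the order did not overlap. The order rests in part on the length used: divided by the length of the principal transcript instead, *Cck* stood alone with 10929 ± 1082 normalized counts per kilobase, *Vip* rose to 702 ± 108 and overlapped *Penk*, and *Tac1* rose to 216 ± 15.9, above *Crh* and overlapping *Pdyn*.

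**Figure D1:**
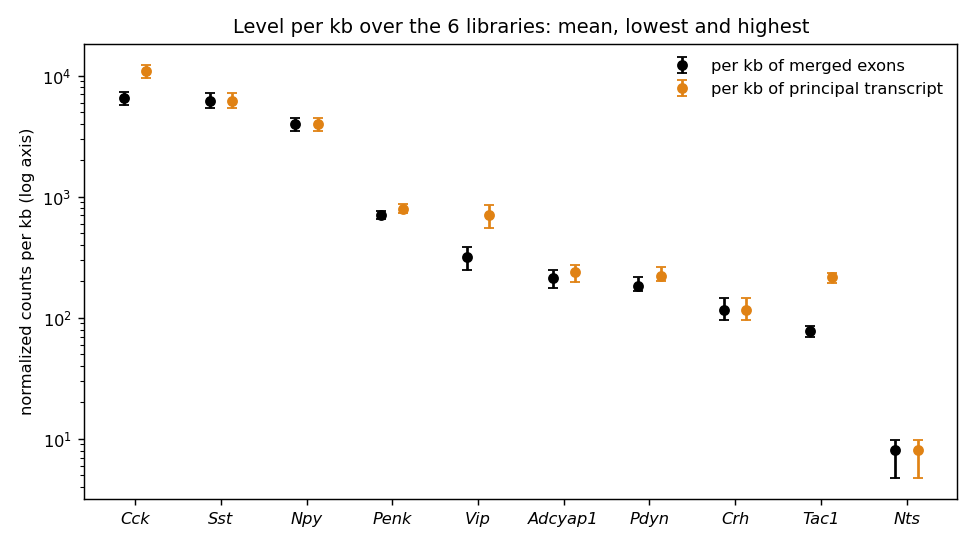
Level of the 10 precursor genes over the 6 libraries, in normalized counts per kilobase on a log axis; points are means, bars run from the lowest to the highest library, black for the length of the merged exons and orange for that of the principal transcript. *Cck*, *Sst* and *Npy* form the top of the order under both lengths and *Nts* the bottom, while *Vip* and *Tac1* move with the length used.

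The comparison of *Shank3* TG with WT asked whether the overexpression of a postsynaptic scaffold went with a change in the peptides that cortical neurons make. None of the 10 genes passed the test. *Adcyap1*, the precursor of PACAP, measured 18.6% more in *Shank3* TG without overlap between the groups, *Npy* 15.0% more and *Pdyn* 12.4% more, each from the log2(normalized count + 1) scale, and the precursors of the main interneuron classes, *Sst*, *Vip* and *Cck*, differed from WT by 1.60%, -5.36% and 2.27%. The test was limma's, two-sided and moderated across genes, and p-values were adjusted by Benjamini-Hochberg over the 16714 genes tested, with a threshold of 0.05. Each of the 10 genes had an adjusted p of 1.00 when rounded, and among all genes tested 0 (0%) lay below the threshold, or 1 gene (0.00598%), *Shank3*, with the block. Unadjusted, *Adcyap1* alone of the 10 lay below 0.05, as did 2.01% of all genes tested, 0.933% that were higher and 1.08% that were lower in *Shank3* TG. Of the 10 genes, 7 were higher and 3 lower in *Shank3* TG, and their median log2 fold change was 0.05, or -0.02 without the libraries numbered 3, when 4 were higher and 6 lower. Without WT-2 the counts were 5 and 5. Over all genes tested the median was -0.004 and 48.6% were higher. In bulk tissue, fewer cells of a type and less RNA per cell cannot be told apart.

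**Figure D2:**
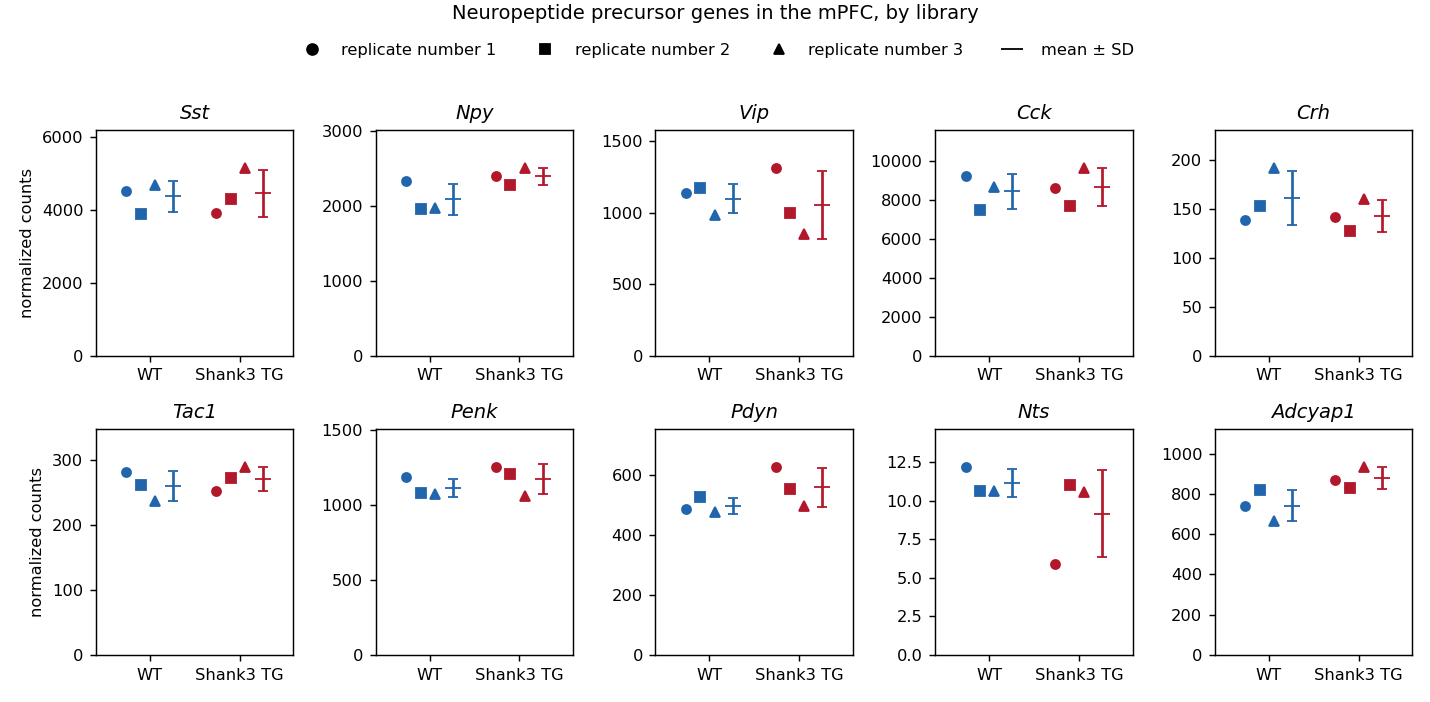
Normalized counts of the 10 precursor genes in each library, WT in blue and *Shank3* TG in red, with symbols for the replicate numbers and the mean ± SD (n = 3 libraries) beside them; every vertical axis starts at 0. Only in *Adcyap1* do all 3 *Shank3* TG libraries lie above all 3 WT libraries.

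*Sst* (ENSMUSG00000004366, chromosome 16 from 23889573 to 23890958) encodes somatostatin, an inhibitory peptide. Its normalized counts were 3919, 4311 and 5168 in TG-1, TG-2 and TG-3, against 4532, 3910 and 4698 in WT-1, WT-2 and WT-3; below, values stand in this order. The groups overlapped for most of their range, with TG-3 highest and WT-2 lowest, just under TG-1. The log2 fold change was 0.02 (standard error 0.12, 95% interval from -0.25 to 0.30 in limma's fit), so that changes beyond 1.23-fold up or 0.839-fold down lay outside the interval.

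*Npy* (ENSMUSG00000029819, chromosome 6 from 49822710 to 49829507) encodes neuropeptide Y, which is made in part by the same interneurons as somatostatin. The 3 libraries of *Shank3* TG gave 2396, 2286 and 2510 normalized counts, those of WT 2332, 1966.5 and 1972.5. WT-1 reached into the *Shank3* TG range, and WT-2 and WT-3 lay below all 3 *Shank3* TG libraries. The log2 fold change was 0.20 (standard error 0.09, 95% interval from -0.01 to 0.41). The unadjusted p from limma was 0.0578, and 0.0191 with the block, under which 4.98% of all genes lay below 0.05. Leaving out single libraries gave log2 fold changes from 0.16 to 0.28, and leaving out the libraries numbered 3 gave 0.13.

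*Vip* (ENSMUSG00000019772, chromosome 10 from 5639218 to 5647617) encodes vasoactive intestinal peptide, the mark of interneurons that inhibit other interneurons. Levels in *Shank3* TG were 1313, 994 and 849 normalized counts, and in WT 1137.5, 1169 and 983. Both the highest and the lowest of the 6 libraries were *Shank3* TG. The log2 fold change was -0.08 (standard error 0.16, 95% interval from -0.45 to 0.29), and it was -0.25 without TG-1 and 0.06 without TG-3. *Cck* (ENSMUSG00000032532, chromosome 9 from 121489824 to 121495694) encodes cholecystokinin, made by basket cells and by pyramidal neurons. In *Shank3* TG the libraries held 8611.5, 7695 and 9659 normalized counts, and in WT 9221, 7474 and 8683, and the log2 fold change was 0.03 (standard error 0.11, 95% interval from -0.23 to 0.29). The number 2 libraries were the lowest of both genotypes.

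*Crh* (ENSMUSG00000049796, chromosome 3 from 19693401 to 19695396) encodes corticotropin-releasing hormone, the peptide that starts the pituitary stress response and is made locally by some *Vip* and *Sst* interneurons. The 3 libraries of *Shank3* TG gave 141, 128 and 160.0 normalized counts, those of WT 139, 153 and 192. The groups overlapped, and the log2 fold change was -0.16 (standard error 0.16, 95% interval from -0.54 to 0.21), or -0.03 with WT-3 left out and -0.27 with WT-1 left out. *Tac1* (ENSMUSG00000061762, chromosome 6 from 7554879 to 7565834) encodes substance P and neurokinin A, and is found in part of the parvalbumin interneurons. Levels in *Shank3* TG were 252, 272 and 289 normalized counts, and in WT 282, 262 and 236, and the log2 fold change was 0.06 (standard error 0.12, 95% interval from -0.21 to 0.33). The group ranges of *Tac1* overlapped in part, with TG-3 highest and WT-3 lowest.

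*Penk* (ENSMUSG00000045573, chromosome 4 from 4133531 to 4138819) encodes the enkephalins, ligands of the delta and mu opioid receptors. In *Shank3* TG the libraries held 1255, 1206 and 1063 normalized counts, and in WT 1185, 1082 and 1076. The *Shank3* TG group held both the 2 highest libraries and the lowest, and the log2 fold change was 0.07 (standard error 0.09, 95% interval from -0.14 to 0.29), or 0.025 with TG-1 left out and 0.14 with TG-3 left out. The gene A830012C17Rik overlaps *Penk* on the other strand. The kit keeps the strand, but whether it was used in quantification is not given in the sources used here, so reads of *Penk* are uncertain to that extent. *Pdyn* (ENSMUSG00000027400, chromosome 2 from 129686565 to 129699844) encodes the dynorphins, ligands of the kappa opioid receptor. The 3 libraries of *Shank3* TG gave 626, 553 and 497 normalized counts, those of WT 485, 526 and 476, and the log2 fold change was 0.17 (standard error 0.11, 95% interval from -0.09 to 0.42). TG-1 was highest of the 6, and without it the log2 fold change was 0.08.

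*Nts* (ENSMUSG00000019890, chromosome 10 from 102481756 to 102490486) encodes neurotensin. Levels in *Shank3* TG were 5.90, 11.03 and 10.6 normalized counts, and in WT 12.2, 10.6 and 10.6. TG-1 alone was low, the other 5 libraries lay between 10.6 and 12.2, and the log2 fold change was -0.30 (standard error 0.38, 95% interval from -1.17 to 0.58), or -0.04 with TG-1 left out and -0.44 with TG-2 left out. The interval was the widest of the 10 genes.

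*Adcyap1* (ENSMUSG00000024256, chromosome 17 from 93199017 to 93206537) encodes PACAP, the relative of VIP that raises cAMP in its target cells. In *Shank3* TG the libraries held 871, 828 and 934 normalized counts, and in WT 740, 821 and 664, with means of 878 ± 53.4 and 741 ± 78.5 (SD, n = 3). The groups did not overlap, but the lowest *Shank3* TG library, TG-2, lay only just above the highest WT library, WT-2. The log2 fold change was 0.25 (standard error 0.10, 95% interval from 0.01 to 0.49), and leaving out single libraries gave values from 0.17, without WT-3, to 0.32, without WT-2. It was 0.12 without the libraries numbered 3. Its unadjusted p from limma was 0.0443, number 287 in the order of all genes, and 0.0305 with the block. It was 0.0646 without the mean-variance trend and 0.253 without the libraries numbered 3. In 5 of the 6 fits that left out a library it lay between 0.0503 and 0.137 (0.0185 without WT-2). With the other pseudocounts, filters and scalings and with the robust option it lay between 0.0349 and 0.0445. With the empirical null it was 0.00596, and there 1215 of all 16714 genes lay below 0.05. The exact permutation test over 3 libraries against 3 gave 0.1, the smallest two-sided p-value it allows, and gave 0.2 or more for each of the other 9 genes. Of the 10 genes it was the 1 without overlap between groups, against 6.02% of all genes tested, 2.91% with *Shank3* TG above.

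Taken by replicate number, *Adcyap1*, *Npy* and *Pdyn* were higher in *Shank3* TG than in WT at each of the 3 numbers, against 11.6% of all genes tested, and none of the 10 was lower at each number, against 13.2%. The 3 genes did not share a pattern over the numbers. The log2 difference of *Adcyap1* was 0.24, 0.01 and 0.49 for the numbers 1, 2 and 3. That of *Npy* was 0.04, 0.22 and 0.35, and that of *Pdyn* was 0.37, 0.07 and 0.06, so that *Pdyn* rested on number 1 and *Adcyap1* and *Npy* more on number 3 than on the rest.

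**Figure D3:**
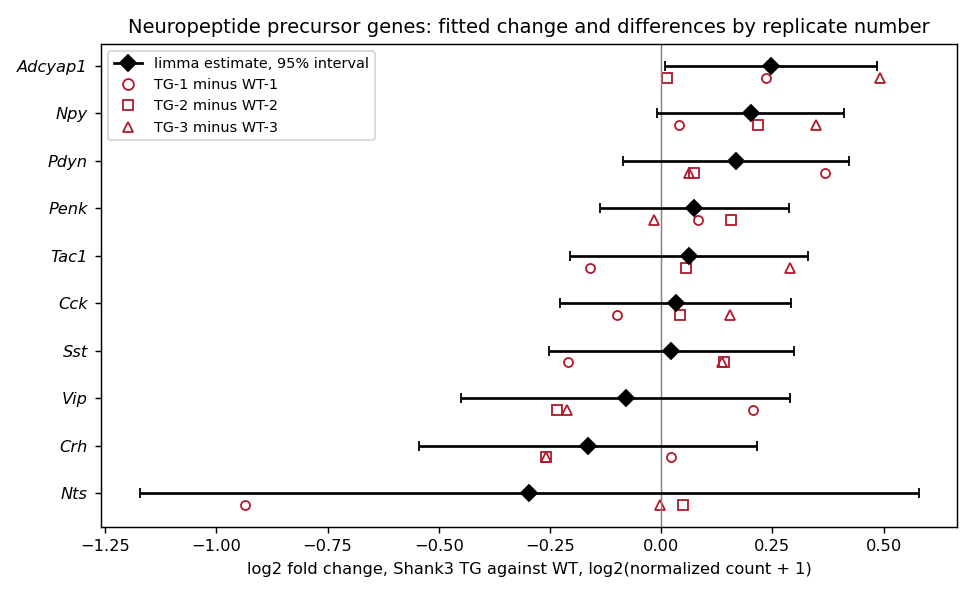
Log2 fold change of the 10 precursor genes, *Shank3* TG against WT, on the log2(normalized count + 1) scale; black diamonds are limma's estimates with 95% intervals and red open symbols the difference at each replicate number. The interval of *Adcyap1* alone lies above 0, from 0.01 to 0.49, before any adjustment for the number of genes.

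The genes also differed in how much they varied between libraries of one genotype. *Vip* had a residual SD of 0.24 on the log2 scale, larger than that of 89.9% of the 2588 genes of similar level, taken within 0.5 log2 units. *Sst* (0.17) and *Cck* (0.16) exceeded 79.4% and 77.2% of theirs, while *Tac1* (0.11) exceeded 23.9% and *Nts* (0.33) 15.5%. *Vip* and *Pdyn* ranked the libraries alike within each genotype, with TG-1 highest and TG-3 lowest, and WT-2 highest and WT-3 lowest. For 6 of the 10 genes the libraries numbered 3 lay on the same side of the means of numbers 1 and 2 in both genotypes, against 72.2% of all genes tested. *Sst*, *Cck* and *Crh* were higher there, with log2 differences of 0.33 and 0.16, of 0.25 and 0.06, and of 0.25 and 0.39 in *Shank3* TG and WT. *Vip*, *Penk* and *Pdyn* were lower there, with -0.43 and -0.23 for *Vip*, -0.21 and -0.07 for *Penk*, and -0.24 and -0.08 for *Pdyn*. Of the striatal markers, *Drd1* (0.56 and 0.44) and *Six3* (2.53 and 1.76) were higher there and *Ppp1r1b* lower (-0.14 and -0.08). The part of the numbered 3 libraries and of striatal tissue in these values was not tested.

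The mean profile of the 10 genes over the 6 libraries, after centring each genotype, spanned from -0.03 in WT-3 to 0.05 in WT-1 on the log2 scale. Between single genes, Pearson's r ran from -0.97 for *Sst* and *Pdyn* to 0.95 for *Vip* and *Pdyn*. The mean profile is therefore not a pattern that the 10 genes share. Among 13446 other genes that averaged 50 or more normalized counts, *Kcnc4* and *Arfip2* had the profiles most like it. Over the 6 libraries, which were normalized together, Pearson's r was 0.998 and 0.996 and Spearman's rho 0.71 and 0.49; these are given as a description, and 148 genes had an r over 0.9.

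The receptors of these peptides were listed as 23 genes, of which 21 were tested; *Sstr5* had no row, and *Cckar* had a mean under the filter. By limma, 0 of them had an adjusted p below 0.05 and 0 an unadjusted one (2.01% of all genes). Of the 21, 16 were higher and 5 lower in *Shank3* TG, where 48.6% of all genes were higher, and the median log2 fold change was 0.05. Without TG-2, a fit chosen after seeing the data as it is for the lists that follow, 15 were higher and 6 lower, against 49.6% of all genes higher. The most abundant was *Sort1*, a sorting receptor that also binds neurotensin, with 16862 ± 846 normalized counts in *Shank3* TG and 16254 ± 800 in WT (SD, n = 3). *Adcyap1r1*, a PACAP receptor, had 4600 ± 343 and 4316 ± 180.0, and *Cckbr*, the main cholecystokinin receptor of the brain, 2336 ± 119 and 2289 ± 90.4. The groups overlapped for *Adcyap1r1*. For its ligand gene *Adcyap1* they were apart by little, with TG-2 at 828 and WT-2 at 821, and neither gene passed the test. The largest positive log2 fold change belonged to *Crhr2*, a receptor of CRH and the urocortins, which measured 14.8, 15.2 and 24.6 normalized counts in *Shank3* TG against 11.2, 11.3 and 10.2 in WT and is named here after its values had been seen. Of the 21 receptors it was the 1 without overlap between groups, against 6.02% of all genes, the fitted log2 difference was 0.66 (standard error 0.33), or 0.43 with TG-3 left out.

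Precursors are cut by prohormone convertases, trimmed by carboxypeptidase E and amidated by PAM in the dense-core vesicle. Of 15 genes for processing and for the vesicle, 8 were higher and 7 lower in *Shank3* TG, with the median log2 fold change at 0.02, and none passed the test; without TG-2, 7 were higher and 8 lower, and the median was -0.03. *Cpe*, the carboxypeptidase, was the most abundant with 48401 ± 6802 normalized counts in *Shank3* TG and 47692 ± 6707 in WT (SD, n = 3). *Ptprn*, a protein of the vesicle membrane, had 18629 ± 119 and 17625 ± 819, and *Pcsk2*, a convertase that cuts many neuropeptides, 15162 ± 729.8 and 14208 ± 1004. *Ptprn2*, the paralogue of *Ptprn*, was the one gene of the list whose unadjusted p from limma lay below 0.05 (0.0294), as for 2.01% of all genes. That p was 0.0715 with the robust option and 0.0626 without the trend. With the block, where 4.98% of all genes lay below 0.05, *Vgf*, a granin-like precursor, joined *Ptprn2* (0.0253 from limma). *Vgf*, named after its values had been seen, was the 1 of the 15 without overlap between groups, against 6.02% of all genes. For *Ptprn2*, the libraries of *Shank3* TG gave 13939, 5398 and 15014 normalized counts, those of WT 5186, 6064 and 5122. TG-1 and TG-3 were thus far above every other library, and TG-2 lay inside the WT range. The fitted log2 difference of *Ptprn2* was 0.94 (standard error 0.35), 1.41 with TG-2 left out and 0.67 with TG-3 left out. The adjusted p from limma was 1.00, and 0.078 with TG-2 left out.

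Once released, peptides are bound or cut outside the cell. Of 11 genes for such proteins, 7 were higher and 4 lower in *Shank3* TG, with the median log2 fold change at 0.04, and none passed the test; both counts were the same without TG-2. *Dpp10*, a peptidase-like protein without enzyme activity, had 5533 ± 537 normalized counts in *Shank3* TG and 5266 ± 788 in WT, *Ece1*, an endothelin-converting enzyme, had 1918 ± 119.9 and 1722 ± 185, and *Lnpep*, an aminopeptidase, 1564 ± 128 and 1606 ± 282 (SD, n = 3). With the block, *Ece1* had an unadjusted p of 0.0267 from limma, the 1 gene of the 11 below 0.05, against 4.98% of all genes. *Ece2*, named after its values had been seen, was the 1 of the 11 without overlap between groups, against 6.02% of all genes.

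**Figure D4:**
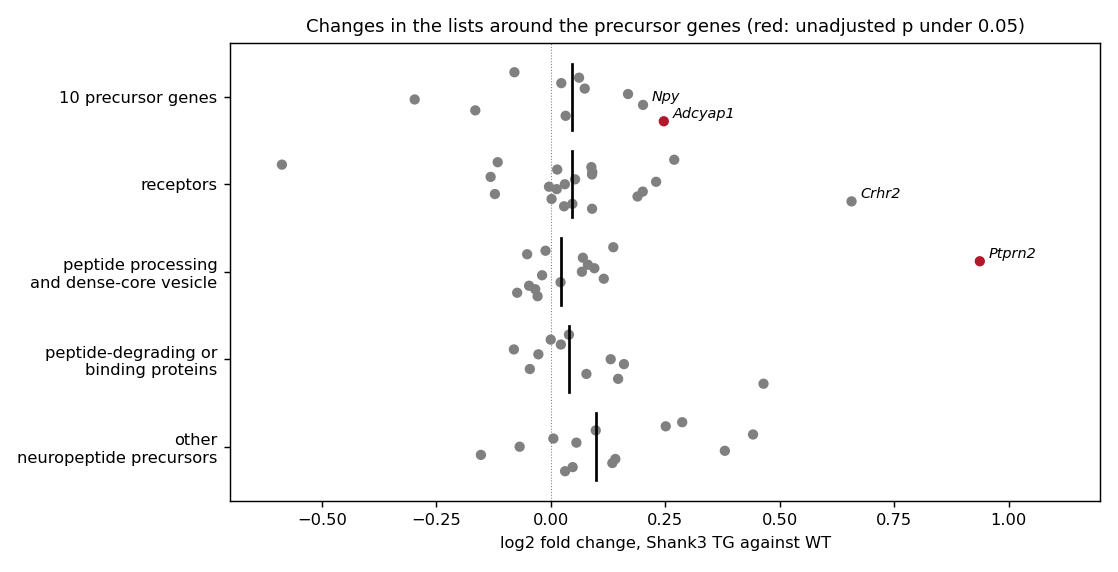
Log2 fold changes, *Shank3* TG against WT, of the 10 precursor genes and of the tested genes of the receptor, processing, degrading and other precursor lists; each point is a gene, black bars are list medians and red points have an unadjusted p below 0.05 from limma. Red are *Adcyap1* and *Ptprn2*, and the list medians lie between 0.02 and 0.10.

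A further list held 23 other neuropeptide precursors, of which 20 had a row and 13 were tested. The other 7, among them *Avp*, *Oxt* and *Hcrt*, the hypothalamic peptides vasopressin, oxytocin and orexin, had a mean under the filter. Of the 13, 11 were higher and 2 lower in *Shank3* TG, where 48.6% of all genes were higher, and the median log2 fold change was 0.10. By limma, 0 of them had an unadjusted p below 0.05, against 2.01% of all genes. Without TG-2, 10 were higher and 3 lower. *Trh*, for one, was higher in *Shank3* TG at number 2 and lower at numbers 1 and 3. The most abundant were *Edn3*, an endothelin, with 189 ± 13.2 normalized counts in *Shank3* TG and 173 ± 35.2 in WT, *Pnoc*, the nociceptin precursor, with 153 ± 24.0 and 151 ± 12.3, and *Cort*, the relative of somatostatin, with 149 ± 52.4 and 132 ± 28.03 (SD, n = 3).

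TG-2, the library with high olfactory bulb markers, was the highest library for all 6 of those markers and for none of the 10 precursor genes, against 12.8% of all genes tested. *Trh*, the precursor of thyrotropin-releasing hormone, had 63.4 normalized counts in TG-2 and 12.98 to 26.0 in the other libraries. *Nmb*, the neuromedin B precursor, had 74.3 in TG-2 and 29.8 to 47.7 elsewhere. The receptors *Vipr2* and *Tacr1* had 73.4 and 76.3 in TG-2, and 11.1 to 28.6 and 36.4 to 48.1 in the others. These 4 genes were named after their values had been seen, and the part of olfactory bulb tissue in them was not tested. Without TG-2, the log2 fold changes of the 10 precursor genes kept their direction and ranged from -0.44 for *Nts* to 0.29 for *Adcyap1*, and none passed the test.

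**Figure D5:**
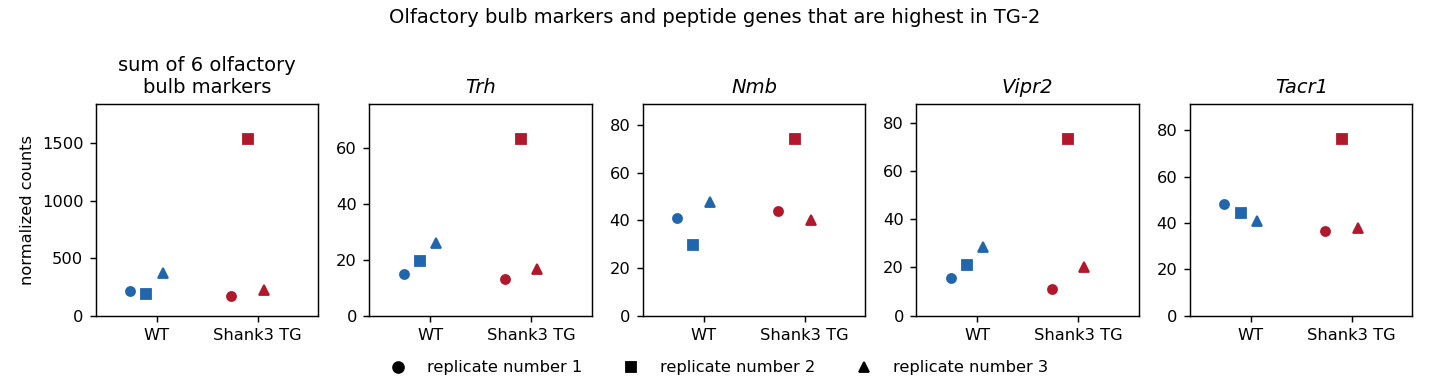
Normalized counts by library for the sum of 6 olfactory bulb markers and for *Trh*, *Nmb*, *Vipr2* and *Tacr1*, WT in blue and *Shank3* TG in red, with symbols for the replicate numbers; every vertical axis starts at 0. TG-2 is the highest point of each panel, with 1539 for the summed markers against at most 368 in the other libraries.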

How the data were processed

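RNA-seq of the mPFC was available as 1 table of 6 libraries. The authors estimated transcript abundance with Salmon 0.9.1 on GRCm38 with GC bias correction, imported genes with tximport and divided counts by DESeq2 size factors (1.19.11, R 3.6.0); what they deposited is this signal, in normalized counts. They are not whole numbers: in a library at most 41.1% of the values under 20 lay within 0.05 of a multiple of one step, so reads were not recovered and no counting interval was given. Values were compared with limma 3.58.1 in R 4.3.3 as log2(normalized count + 1), with genotype alone, a mean of at least 5, and a mean-variance trend. The p-values measure the spread between pools, not between mice. The fit was tested on simulated log-normal values with independent libraries, so that test does not cover deviations that libraries share. The main fit did not pair libraries. Replicate numbers were taken as pairs only in the block fit and in the differences by number. This was done since the deviations of same-numbered libraries from their genotype means correlated at 0.30, 0.33 and 0.62 across genes. The labels do not say what a number shares. TG-1 with WT-2 (0.27) and TG-2 with WT-1 (0.23) came close to the values of their own numbers. Gene names, positions and exons came from GENCODE M21 (GRCm38), which holds 18231 of the 18254 genes, and promoters from RefSeq. The genes and lists were chosen with earlier results of these data known. Named from each other list were genes with an unadjusted p-value under 0.05 and the 3 most abundant; of the cell type markers, only those that a result turns on; and, for the mean profile, genes with the highest Pearson's r, of which one is not reported here. Other genes are said to be named after their values were seen. Alternatives were pseudocounts of 0.1 and 5, no filter or a mean of 50, upper quartile and quantile scaling, eBayes without a trend or robust, the block, an empirical null, and libraries left out.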

Additional observations from a re-analysis of the deposited data

How the results depend on the processing

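Under all 17 alternatives, 0 of the 10 precursor genes were called by limma, and the lowest adjusted p was 0.347, for *Adcyap1* with the empirical null. *Npy*, *Crh*, *Penk*, *Pdyn*, *Nts* and *Adcyap1* kept their direction in each fit that tested them. Without the libraries numbered 3, the log2 fold change turned to -0.034 for *Sst*, -0.028 for *Cck* and -0.053 for *Tac1*. With each library left out in turn it ran from -0.087 to 0.11 for *Sst*, -0.25 to 0.063 for *Vip*, -0.054 to 0.11 for *Cck* and -0.0048 to 0.12 for *Tac1*. The median of the 10 genes ran from 0.011 without WT-2 to 0.11 without WT-1, and was -0.021 without the libraries numbered 3. Of all genes, 1, *Shank3*, was called with upper quartile scaling, with the robust option, with the replicate block and without the libraries numbered 3, and 26 with the empirical null; with 1 library left out the count was 0 or, without WT-3, 1. As a paired analysis, the replicate block changed no call among the precursor genes or the lists around them. The cause of these shifts was not tested. For *Nts*, the gene of lowest level, the 95% interval was the widest of the 10.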

Other observations

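*Chodl*, a marker of a rare class of long-range *Sst* and *Npy* neurons, was the 1 of 10 markers of inhibitory neurons without overlap between the groups, against 6.02% of all genes, with 6.85, 10.1 and 10.7 normalized counts in *Shank3* TG against 17.2, 16.7 and 13.3 in WT, and is named after its values had been seen. The log2 fold change of -0.73 (standard error 0.34) ran from -0.84 to -0.55 when single libraries were left out. It did not pass the test, with an adjusted p of 1.00 from limma, and of the 10 markers 6 were higher and 4 lower, with a median of 0.03. *Sst* and *Npy* had log2 fold changes of 0.02 and 0.20. *Ptprn2* had 5122 to 6064 normalized counts in the 3 WT libraries and TG-2, against 13939 and 15014 in TG-1 and TG-3.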
